A study of Mus musculus with 20 samples.

Results

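The cytochrome P450 genes of the mouse were followed in whole blood of irradiated and unirradiated mice. They were taken by name: every non-control probe of the arrays whose gene name starts with Cyp, a number, a letter and a further number was kept, and where several probes stood for a gene the one with the highest mean signal over all arrays was used. This gave 96 genes, represented by 120 probes, of 31093 gene names on the array. The deposited data are 20 one-colour expression arrays, 5 for each of 4 groups of male mice. The groups were wild-type (WT) C57BL/6 littermates and Il10-/- mice (strain B6.129P2-Il10tm1Cgn/J, in which the gene for the anti-inflammatory cytokine interleukin 10 is disrupted throughout the body, bred from heterozygous parents), each given 0 Gy (sham) or 7 Gy of X-rays to the whole body. Blood was drawn by cardiac puncture 24 h later into a tube that lyses all cells, and globin transcripts were reduced before labelling, so every array is a mixture of all cells and free transcripts in that blood. The study asked whether an inflammatory background changes the blood response to radiation, and the comparisons used here are the genotypes without radiation, radiation within each genotype, and the difference between the responses.

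P450 enzymes are heme proteins that insert oxygen into their substrates, with electrons passed from NADPH by a reductase in the endoplasmic reticulum or by ferredoxin in mitochondria. Members of families 1 to 3 mostly oxidise drugs and other foreign compounds, family 4 hydroxylates fatty acids and eicosanoids, and the remaining families make or clear steroids, bile acids, vitamin D and retinoids. Most of the drug-metabolising members are best known from hepatocytes, while blood leukocytes are known for a few, such as Cyp4f18, which inactivates the attractant leukotriene B4 in neutrophils. Alb, which encodes serum albumin, is the classical hepatocyte transcript and was used as the yardstick for liver transcripts in these blood samples.

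A few promoters and probe stretches are printed as examples. The 250 bases before the annotated start are shown for 3 genes that followed Alb between arrays and for Cyp4f18, which did not. They come from RefSeq (build GRCm38.p6) and are written 5′ to 3′ along the gene's strand. Capitals mark CAAAGNNCA, a form of the site bound by the hepatocyte regulator HNF4, and TATAAA, each searched on both strands.
Cyp2d10, chr15:82407195-82407444, minus strand: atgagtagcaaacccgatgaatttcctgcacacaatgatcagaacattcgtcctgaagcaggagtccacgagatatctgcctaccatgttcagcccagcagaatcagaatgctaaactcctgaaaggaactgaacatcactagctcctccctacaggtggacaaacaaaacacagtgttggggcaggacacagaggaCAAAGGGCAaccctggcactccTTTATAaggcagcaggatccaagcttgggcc
Cyp2d26, chr15:82794246-82794495, minus strand: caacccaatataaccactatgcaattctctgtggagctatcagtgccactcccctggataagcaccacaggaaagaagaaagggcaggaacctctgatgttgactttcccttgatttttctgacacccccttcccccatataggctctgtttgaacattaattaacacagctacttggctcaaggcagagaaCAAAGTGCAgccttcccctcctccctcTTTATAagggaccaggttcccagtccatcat
Cyp2a12, chr7:27028840-27029089, plus strand: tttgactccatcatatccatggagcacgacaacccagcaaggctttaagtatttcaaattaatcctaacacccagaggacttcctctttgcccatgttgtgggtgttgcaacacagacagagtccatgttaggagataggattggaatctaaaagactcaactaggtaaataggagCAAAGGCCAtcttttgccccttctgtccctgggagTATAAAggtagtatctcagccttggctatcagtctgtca
Cyp4f18, chr8:72009627-72009876, minus strand: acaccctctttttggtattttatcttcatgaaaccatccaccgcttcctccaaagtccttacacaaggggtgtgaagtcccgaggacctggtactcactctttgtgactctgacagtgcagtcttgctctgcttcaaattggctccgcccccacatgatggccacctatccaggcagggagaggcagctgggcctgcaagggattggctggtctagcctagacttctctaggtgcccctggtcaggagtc

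The Cyp2d10, Cyp2d26 and Cyp2a12 windows were picked among those that hold both motifs, and each held 1 match of either kind, and neither set of letters was in the Cyp4f18 window. Among the P450 genes with a promoter in the table, CAAAGNNCA stood in 9 of 17 (52.9%) that followed Alb, 1 of 12 (8.33%) that were tested and did not, and 13 of 41 (31.7%) that were not tested, against 1803 of 32851 (5.49%) of all promoters of the same length. TATAAA stood in 12 of 17 (70.6%), 2 of 12 (16.7%) and 13 of 41 (31.7%) of the same sets, against 12.4% of all promoters. The motifs were chosen after their counts had been seen, so these shares are a description and were not tested. Neighbouring P450 genes arose by duplication and share promoter sequence, so the windows are not independent.

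Probe stretches matter for 3 genes that fell after radiation. Cyp4b1, an enzyme that activates protoxins and hydroxylates fatty acids, and Cyp4b1-ps2, an annotated pseudogene of it, lie on the same chromosome. Their probes (mm9, minus strand, chr4:115297406-115297465 and chr4:115254696-115254755) overlap in 23 bases of the related transcripts. Capitals mark the differing bases, T4C and C17A, counted from 1 at the 5′ end of the stretch with the Cyp4b1 base first.
Cyp4b1, probe bases 1 to 23: ctgTcttgagaaacttCatttat
Cyp4b1-ps2, probe bases 38 to 60: ctgCcttgagaaacttAatttat
The brightest probe of Cyp2u1, a fatty acid hydroxylase, lies at chr3:130996343-130996402 (mm9, minus strand) and holds a run of alternating G and T 32 bases long. The last 30 bases of this probe are shown because the result for this gene rests on it, with the end of the run in capitals.
Cyp2u1, probe bases 31 to 60: GTGTGTGTGTGTGTatacaggcatgtttga

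Some arrays stood apart. The spread between repeated spots of the same probe was 0.946 log2 units on replicate 5 of unirradiated WT and 0.773 on replicate 3 of irradiated Il10-/-, against 0.316 to 0.479 on the other arrays. In each of the 4 groups, replicates 1 and 2 were nearly alike: the robust SD of their difference over all probes was 0.141 to 0.230, against 0.249 to 1.09 for the other 36 pairs within groups, and the sources used here do not say whether they came from separate mice. Counts with these 2 arrays averaged are given where they change a call. If they share a source, p-values over 5 arrays are too small. The Il10 probe went against the labels: it lay between -2.64 and -1.06 log2 units and was not well above background on any array labelled WT, and it lay between 1.94 and 3.29 and was well above background on all arrays labelled Il10-/-. Whether this probe lies outside the disrupted part of the gene is not given in the sources used here, so groups are named below by their labels and directions between genotypes rest on these labels. Of 7 neutrophil markers, 4 were called higher in the unirradiated arrays labelled Il10-/- than in those labelled WT (median difference over the 7, 1.90). Of all features, 0.845% were called higher, and their median difference was 0.36. Spots well above background made up 29.9 to 57.8% of each array.

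Blood markers bore out the labelled tissue: the mean level of the neutrophil markers was 6.23 to 9.97, and Ptprc, the pan-leukocyte phosphatase CD45, was well above background on all 20 arrays. Transcripts of another organ were present as well. Of 24 hepatocyte markers (none of them a P450), 7 were not well above background on any array of unirradiated WT, and all were on some array of each other group. Levels throughout are log2 processed signal minus the array's median, so 0 is the median probe of that array.

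Which P450 genes had a signal in blood was asked first. A probe was counted as detected where the scanner software marked its spot as well above background. Of the 96 genes, 12 were detected on all 20 arrays, 65 on some and 19 on none. Those on all arrays were Cyp17a1, Cyp2u1, Cyp2d11, Cyp4f18, Cyp4b1-ps2, Cyp2e1, Cyp46a1, Cyp21a1, Cyp2r1, Cyp2c37, Cyp4a10 and Cyp2s1. The 19 genes without a signal included Cyp1a1 and Cyp1b1, targets of the aryl hydrocarbon receptor, the adrenal steroid hydroxylases Cyp11a1, Cyp11b1 and Cyp11b2, and the vitamin D hydroxylases Cyp27b1 and Cyp24a1. No P450 probe was saturated on any array.

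The number of P450 genes detected was counted on each array. It was 34, 27, 27, 26 and 15 in unirradiated WT and 70, 71, 68, 31 and 34 after 7 Gy. It was 36, 29, 64, 69 and 26 in unirradiated Il10-/- and 68, 70, 19, 51 and 32 after 7 Gy. Arrays with more P450 genes were those with more Alb. The Alb level was 2.30, 2.40, 0.04, -1.02 and -1.83 in unirradiated WT and 13.17, 13.42, 10.22, 3.31 and 6.91 in irradiated WT. It was 3.16, 3.43, 9.98, 11.56 and 2.53 in unirradiated Il10-/- and 11.48, 11.60, 1.83, 9.68 and 6.88 in irradiated Il10-/-. All arrays with at least 51 P450 genes had an Alb level of 9.68 or more, among them replicates 3 and 4 of the unirradiated Il10-/- mice, and all arrays with 36 or fewer had 6.91 or less. In such whole-blood mixtures, fewer cells of a type and less RNA per cell cannot be told apart.

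**Figure D1:**
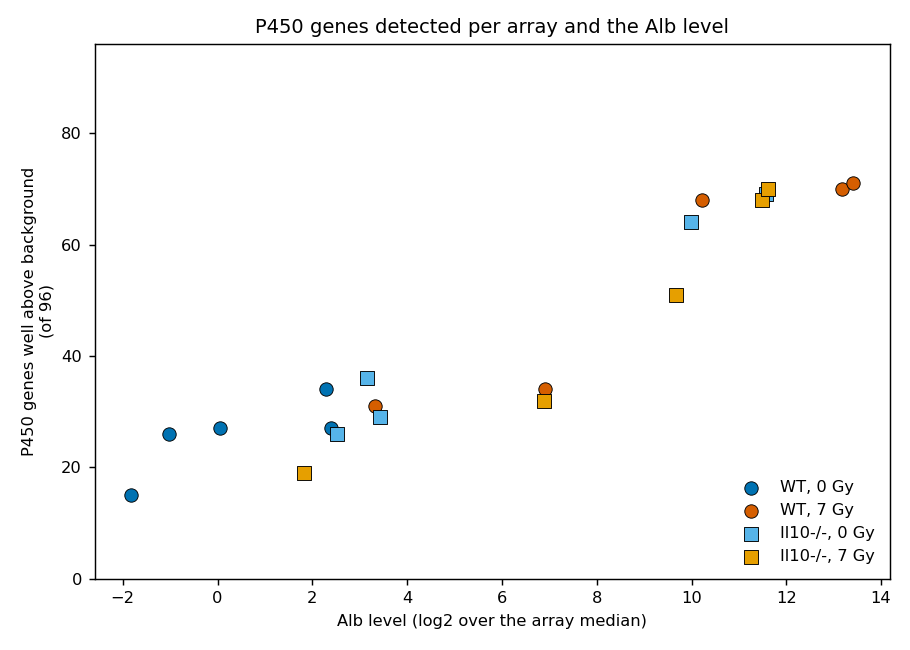
Number of the 96 P450 genes well above background (vertical axis) against the Alb level (horizontal axis, log2 over the array median), 1 point per array, coloured by labelled group (n = 5 each). Arrays with Alb at 9.68 or more had 51 to 71 P450 genes and the others 15 to 36.

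In unirradiated WT, 59 of the 96 genes were not well above background on any array, and 14 were on all 5. Of these 59, 31 were detected on at least 3 of 5 irradiated WT arrays and 29 on at least 2 of 5 unirradiated Il10-/- arrays. By role, 45 genes belong to xenobiotic and drug metabolism, 29 to fatty acids and eicosanoids, 6 each to cholesterol and bile acids, to steroid hormones and to vitamin D and retinoids, and 4 to none of these. For testing, 44 genes passed the background filter and 42 also varied enough between arrays. Cyp20a1, an orphan P450 found in most tissues, and Cyp4f16 passed the first filter only. Of the genes of the first role, 18 of 45 were tested, and the second filter keeps genes that vary between arrays, as genes high with Alb do. Counts over the 42 therefore do not stand for the whole family.

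Which P450 genes varied with Alb between arrays of the same group was asked with a fit over all 20 arrays that held a term for each group and the Alb level. Of the 42 P450 genes tested, 24 followed Alb, all rising with it, where 6.12% of all 18586 features tested rose with Alb and 7.05% changed in either direction. The median change per log2 unit of Alb was 0.24 log2 units over the 42 genes and -0.01 over all features. By role, 15 of 18 xenobiotic genes tested followed Alb, as did 6 of 14 fatty acid genes, 2 of 3 cholesterol genes, 1 of 2 vitamin D and retinoid genes and 0 of 3 steroid hormone genes. All 7 Cyp2d genes tested followed it, as did 4 of 5 Cyp2c genes, 3 of 4 Cyp4a genes and both Cyp2a genes, and 0 of 2 Cyp2b genes. Of 20 hepatocyte markers tested, all 20 followed Alb, and none was called of 4 lung, 7 neutrophil, 4 monocyte, 6 B cell and 5 T cell markers. Of 6 erythroid markers, 1 fell with Alb (Epb4.2, a red cell membrane protein, -0.18 ± 0.04). No heart muscle marker of 6 was called, but their median change was 0.34 per unit of Alb.

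Cyp2d10, of the drug-oxidising subfamily whose human member is CYP2D6, is an example. Its level was -0.83, -0.65, -1.76, -0.39 and -2.45 in unirradiated WT and 9.78, 9.68, 6.92, -0.13 and 3.19 in irradiated WT. It was -0.66, -1.66, 6.66, 7.86 and -0.61 in unirradiated Il10-/- and 8.13, 7.83, -0.14, 6.54 and 2.67 in irradiated Il10-/-. Replicates 3 and 4 of unirradiated Il10-/- were as high as irradiated mice, and replicate 4 of irradiated WT and replicate 3 of irradiated Il10-/- were as low as unirradiated mice. Its probe lies at chr15:82233276-82233335 (mm9) and its level changed by 0.93 ± 0.06 log2 units per unit of Alb (± SE, 20 arrays, limma, adjusted p = 1.07e-12). Cyp2d26, another Cyp2d gene on the same chromosome (chr15:82620575-82620634), changed by 0.92 ± 0.05 (limma, adjusted p = 7.81e-13).

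Cyp2e1, the ethanol-oxidising P450 of the liver, differed from these in being detected on every array. Its level was 3.95, 4.49, 4.81, 5.44 and 3.95 in unirradiated WT and 10.56, 10.64, 8.04, 4.62 and 5.07 in irradiated WT. It was 3.28, 3.61, 8.74, 8.84 and 4.88 in unirradiated Il10-/- and 9.93, 9.91, 2.98, 8.18 and 4.95 in irradiated Il10-/-. The same arrays were high as for Cyp2d10, and its change was 0.61 ± 0.06 per unit of Alb (limma, adjusted p = 1.12e-08). The other probe of the gene was detected on 12 arrays, and its group means were -0.86, 5.02, 2.76 and 4.91 in the same order, where the brightest probe had 4.53, 7.79, 5.87 and 7.19. In WT the other probe was called higher after radiation (5.88, limma, adjusted p = 0.012). The brightest probe was not called there (3.26 ± 0.98, limma, adjusted p = 0.0354).

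The 8 largest changes per unit of Alb also included Cyp2a4 (0.91 ± 0.06) and Cyp2a12 (0.72 ± 0.06), testosterone hydroxylases, Cyp4a14 (0.89 ± 0.07), a fatty acid hydroxylase induced through PPARα, Cyp2f2 (0.82 ± 0.08), which activates naphthalene in liver and lung, Cyp2d40 (0.72 ± 0.09) and Cyp2d12 (0.69 ± 0.06). Cyp2f2 is also the main P450 of lung club cells. Of the 8 lung epithelium markers, whose mean level was -1.05 to 0.27, 3 to 5 were not well above background on any array of a group, whereas Scgb1a1, the club cell secretory protein, was on 16 arrays and Sftpd, a surfactant protein, on 17. Aqp5, a lung and gland water channel, was called higher in WT after radiation (2.39 ± 0.54, limma, adjusted p = 0.00895). Genes that followed Alb less steeply were Cyp4a10 (0.47 ± 0.06) with its near copy Cyp4a31, Cyp2c37 (0.29 ± 0.05), and Cyp2d11 (0.28 ± 0.05). Cyp26b1, which clears retinoic acid, changed by 0.21 ± 0.05 (limma, adjusted p = 0.0117) and Cyp7b1, which hydroxylates oxysterols, by 0.49 ± 0.07. Genes not detected in a group enter this fit with values near background. What this does to their change per unit of Alb was not tested.

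**Figure D2:**
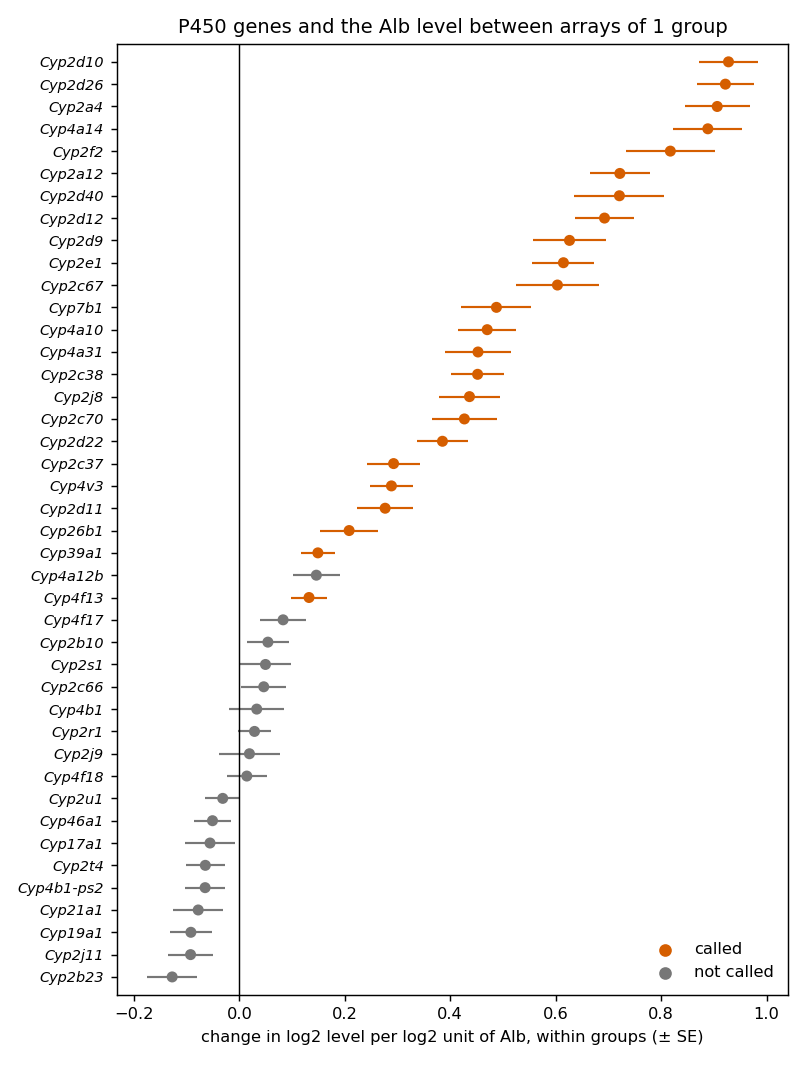
Change in log2 level per log2 unit of Alb within groups (horizontal axis, ± SE, limma over 20 arrays) for the 42 P450 genes tested, 1 row per gene. The 24 genes called are orange and the rest grey; Cyp2d10 had 0.93, Cyp2e1 0.61 and Cyp2b10 0.05.

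Correlation of deviations from the group means gave nearly the same division. It used the same arrays and Alb values as the fit that chose the 24 genes, so it is not separate evidence. Over the 20 arrays Pearson's r with Alb was 0.65 to 0.97 (median 0.87) for the 24 genes that followed Alb and -0.53 to 0.61 (median -0.09) for the other 18. Spearman's rho was 0.66 to 0.96 for the 24 genes. For Cyp2d10 r was 0.965 (permutation p = 1e-05, the smallest that 100000 resamples within groups can give, adjusted p = 0.00051 over 18586 features) and rho 0.958. Of all 42 genes tested, 23 had an adjusted permutation p below 0.05 with r above 0, where 12.6% of all features did. These 23 were all among the 24 genes. Of the other 18, Cyp19a1, the aromatase that makes estrogens, had an adjusted permutation p of 0.0466 with r of -0.52, and was named after its value was seen. Among the 24 genes the exception was Cyp26b1, with r of 0.65 and an adjusted permutation p of 0.0568. Without the 2 arrays farthest from the median Alb deviation, replicate 4 of irradiated WT and replicate 3 of irradiated Il10-/-, r was 0.46 to 0.95 for the 24 genes and 22 had an adjusted permutation p below 0.05.

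The 24 genes were chosen for varying with Alb, so the order of arrays they share describes that choice. In unirradiated Il10-/-, replicates 3 and 4 were the highest for 23 of the 24 genes that followed Alb. In irradiated WT, replicates 1 to 3 were the highest for 21 of the 24. In irradiated Il10-/-, replicate 3 was the lowest for 19 of the 24. The hepatocyte marker mean was 0.02 to 1.29 in unirradiated WT, 2.28 to 10.20 in irradiated WT, 1.47 to 8.55 in unirradiated Il10-/- and 1.39 to 8.37 in irradiated Il10-/-.

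**Figure D3:**
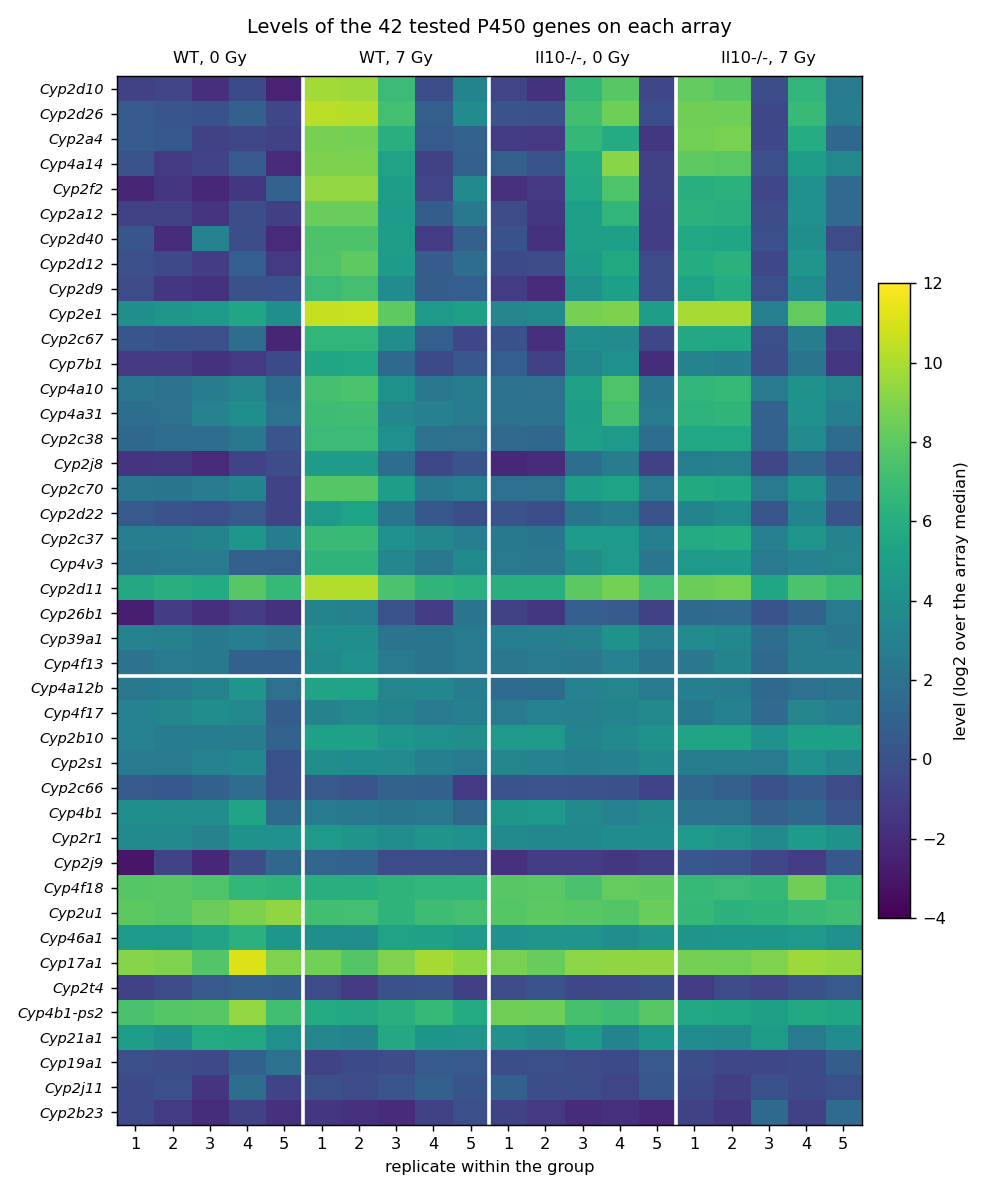
Heat map of the level (colour, log2 over the array median) of the 42 tested P450 genes (rows) on the 20 arrays (columns, by labelled group and replicate), with the 24 genes that followed Alb above the white line and the change per unit of Alb falling from the top in either block. Genes in the upper rows are bright on the same arrays, such as replicates 3 and 4 of unirradiated Il10-/-, where Cyp2d10 was 6.66 and 7.86.

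Radiation in WT was compared next, 7 Gy against 0 Gy, 5 arrays each. At p below 0.001 and a Benjamini-Hochberg rate under 10%, 9 of 42 P450 genes were called, where 6.8% of 18587 features were called. Of these, 8 were higher after radiation (4.48% of all features) and 1 was lower (2.32%). The median difference was 1.86 log2 units over the 42 genes and -0.02 over all features. Among the 24 genes that followed Alb the median was 3.33 and all 24 were higher, and among the other 18 it was -0.35 and 8 were higher. Of the hepatocyte markers tested, 15 of 21 rose and none fell. Heart muscle markers had no call among 6 in WT (mean level -0.61 to 1.93 without and -0.01 to 6.37 with radiation).

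Of the 8 genes that rose, 7 followed Alb. Cyp2d10 was not well above background on any unirradiated array and was on 4 of 5 irradiated arrays, which makes it at least 64.0-fold higher after 7 Gy (means -1.22 and 5.89, limma, adjusted p = 0.00414). Bounds of this kind set the irradiated mean against the lowest signal well above background on each unirradiated array, or the probe's own signal where that was higher. The brighter mean keeps the values of arrays that were not well above background. Such a bound is therefore strict only where every array of the brighter group was well above background, and is otherwise approximate. Cyp2f2 was at least 36.7-fold higher (-1.25 and 5.36, adjusted p = 0.00688, limma) and Cyp2a12 at least 32.9-fold (-0.88 and 4.93, adjusted p = 0.00365, limma). Cyp2d9, a testosterone hydroxylase of male liver, was at least 14.1-fold higher (-0.66 and 3.89, adjusted p = 0.0115, limma). Irradiated replicate 4 was not well above background for Cyp2d10, Cyp2f2 and Cyp2d9, nor was replicate 5 for Cyp2d9, so no order against the unirradiated arrays is read there. Cyp2a12 was well above background on all 5 irradiated arrays. Of 24 alternative settings, Cyp2d10 and Cyp2a12 were called in 17, Cyp2f2 in 14 and Cyp2d9 in 8.

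Cyp2d26 was detected on 2 of 5 unirradiated arrays. Its level was 0.52, 0.29, 0.05, 0.92 and -0.59 without and 10.35, 10.21, 7.20, 0.84 and 3.72 with radiation, a difference of 6.23 ± 1.35 (± SE, limma, adjusted p = 0.00697). The irradiated values were widely spread and replicate 4 lay within the unirradiated range. Cyp2d12 differed by 4.98 ± 1.13 (limma, adjusted p = 0.00908). Since 3 of 5 unirradiated arrays for Cyp2d26 and 4 of 5 for Cyp2d12 were not well above background, the size of both differences rests on values near background. Cyp2d26 was called in 14 of 24 alternative settings and Cyp2d12 in 12. Cyp26b1 was not well above background on any unirradiated array (-2.68 to -1.10) and lay at 3.23, 3.00, 0.09, -1.23 and 2.14 after 7 Gy, at least 2.94-fold higher (means -1.69 and 1.45, limma, adjusted p = 0.00956). Irradiated replicate 4 was not well above background, and the gene was called in 10 of 23 alternative settings.

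Several liver P450 genes that were detected in WT on irradiated arrays alone did not pass the filters and were not tested. In all, 38 genes were not well above background on any unirradiated array and were on some irradiated array, and the 33 of them with a bound above 1 had bounds of 1.02-fold to 64.0-fold (median 4.77). Cyp3a11, the main drug-oxidising P450 of mouse liver, was at -0.83, -0.75, -1.95, -1.28 and -1.01 without and 9.13, 9.17, 5.10, -1.24 and 2.32 with radiation, at least 32.1-fold higher. The bound was 2.51-fold for Cyp7a1, the rate-limiting enzyme of bile acid synthesis, 1.71-fold for Cyp8b1, which sets the balance of bile acids, and 1.39-fold for Cyp27a1, the mitochondrial sterol hydroxylase that is also used by macrophages. They were well above background on 3, 2 and 3 irradiated WT arrays, so these bounds are approximate. These 3 sterol enzymes were highest on irradiated replicates 1 and 2, with Cyp7a1 at 3.98 and 4.11 there and at -1.27 to 0.18 on the other 3 arrays.

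All 7 of the called genes that followed Alb lost their call when the Alb level was added to the fit. The difference of Cyp2d10 was then -0.78 (adjusted p = 0.754, limma), and no P450 gene of the 42 was called. Alb itself differed by 9.03 ± 1.52 between these groups (limma, adjusted p = 0.00147), so radiation and Alb overlap in this comparison and cannot be told apart in it. The count depended on single arrays: it was 3 without unirradiated WT replicate 5 (Cyp2b10, Cyp4b1 and Cyp4b1-ps2), 4 without unirradiated replicate 4, 5 without irradiated replicate 1, 18 without irradiated replicate 4 and 14 without irradiated replicate 5. With the slide as a block it was 19 (share of all features not given here), and with replicates 1 and 2 averaged it was 5 (Cyp2a12, Cyp2d10, Cyp2d12, Cyp2d26 and Cyp2f2).

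Cyp2b10, the phenobarbital-inducible P450 switched on through the nuclear receptor CAR, rose in WT and did not follow Alb within groups. Its level was 3.08, 2.77, 2.74, 2.74 and 1.11 in unirradiated WT and 5.17, 5.14, 4.40, 4.03 and 3.88 in irradiated WT. The groups did not overlap, and the difference was 2.04 ± 0.45 (limma, adjusted p = 0.00779). Unirradiated WT replicate 5 was not well above background, so the size of this difference rests partly on a value near background. In Il10-/- its level was 4.63, 4.59, 3.24, 3.59 and 4.23 without and 5.32, 5.36, 4.10, 5.12 and 5.01 with radiation, a difference of 0.93 ± 0.34 that was not called (limma, adjusted p = 0.0703), and the groups overlapped. Every slide held 1 array of each group, and Cyp2b10 was higher after radiation on 5 of 5 slides in either genotype, by 1.29 to 2.77 in WT and 0.69 to 1.53 in Il10-/-. Its change per unit of Alb within groups was 0.05 ± 0.04 (limma, adjusted p = 0.393). Without subtraction of group means its r with Alb was 0.70 (adjusted permutation p = 0.0046), so the gene is not set apart from Alb between groups. The probe lies at chr7:26711522-26711581 (mm9). The rise in WT was called in 19 of 24 alternative settings, and not with normexp (1.64, limma, adjusted p = 0.0529), with Alb in the fit (0.64, adjusted p = 0.729), without irradiated WT replicate 1 (1.87, adjusted p = 0.0253) or 2 (1.88, adjusted p = 0.024), or with these replicates averaged in every group (1.99, adjusted p = 0.0342).

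**Figure D4:**
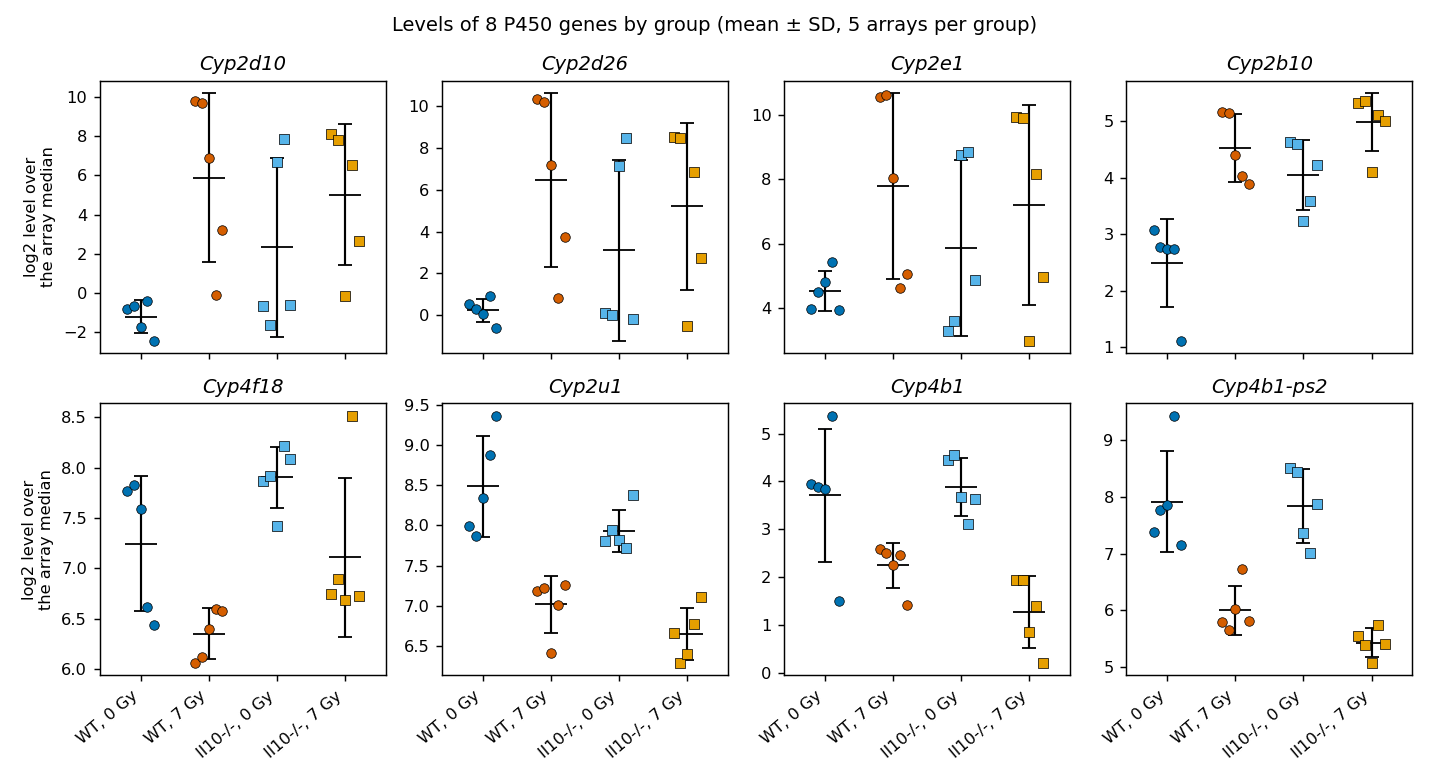
Level (vertical axis, log2 over the array median) of 8 P450 genes in the 4 labelled groups, 1 point per array with the mean and SD (n = 5). Cyp2d10, Cyp2d26 and Cyp2e1 are spread widely within groups, Cyp2b10 is higher after 7 Gy in WT, and Cyp2u1, Cyp4b1 and Cyp4b1-ps2 are lower after 7 Gy in Il10-/-.

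Radiation in Il10-/- was compared in the same way. Of 42 P450 genes, 3 were called, where 9.16% of all features were called. All 3 were lower (5.87% of all features) and none was higher (3.29% of all features), with 5 genes higher at an unadjusted p below 0.05. The median difference was 0.61 over the 42 genes and -0.10 over all features. Among the 24 genes that followed Alb the median was 1.37 and 23 were higher, but the arrays of these genes overlapped, since unirradiated replicates 3 and 4 were high and irradiated replicate 3 was low. Of the 21 hepatocyte markers tested none was called.

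The genes that fell were Cyp4b1, Cyp4b1-ps2 and Cyp2u1. Cyp4b1 lay at 4.45, 4.55, 3.68, 3.11 and 3.63 without and 1.94, 1.95, 0.85, 1.40 and 0.20 with radiation, a difference of -2.62 ± 0.39 (limma, adjusted p = 0.000946). Irradiated replicates 3 and 5 were not well above background for Cyp4b1, so the size of its difference rests partly on values near background. Cyp4b1-ps2 lay at 8.51, 8.44, 7.37, 7.02 and 7.87 without and 5.55, 5.39, 5.07, 5.75 and 5.41 with radiation, a difference of -2.41 ± 0.31 (limma, adjusted p = 0.000345). Neither gene's groups overlapped, and each was lower on 5 of 5 slides. In WT, Cyp4b1-ps2 was the called gene that fell: 7.38, 7.77, 7.86, 9.43 and 7.16 without and 5.79, 5.66, 6.02, 6.74 and 5.81 with radiation, a difference of -1.91 ± 0.45 (limma, adjusted p = 0.0112), not called with replicates 1 and 2 averaged (-1.93, limma, adjusted p = 0.0418). Its fall in WT was called in 15 of 24 alternative settings, with differences of -2.24 to -0.65. Cyp4b1 in WT lay at 3.96, 3.88, 3.84, 5.37 and 1.5 without and 2.60, 2.50, 2.24, 2.46 and 1.42 with radiation, which was not called (-1.46 ± 0.57, limma, adjusted p = 0.0941) and overlapped through unirradiated replicate 5, where it was not well above background. The probes of the gene and the pseudogene share most bases of the stretch printed above, and whether either probe also reads the other's transcript was not tested.

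Cyp2u1 lay at 7.81, 7.94, 7.82, 7.72 and 8.37 without and 6.66, 6.29, 6.40, 6.77 and 7.11 with radiation in Il10-/-, with no overlap, a difference of -1.29 ± 0.23 (limma, adjusted p = 0.00301). In WT it lay at 7.99, 7.86, 8.34, 8.87 and 9.36 without and 7.18, 7.22, 6.41, 7.01 and 7.26 with radiation, also without overlap, a difference of -1.47 ± 0.40 that missed the threshold on p (limma, adjusted p = 0.0219). It was lower on 5 of 5 slides in either genotype. The fall rests on the probe with the alternating G and T run: another probe of the gene was detected on 19 arrays with group means of 1.94, 2.10, 1.91 and 2.34, and a further one on none. With replicates 1 and 2 averaged the fall in Il10-/- was -1.26 and not called (limma, adjusted p = 0.0253).

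Blood cell and heart muscle markers were read in the same comparisons. Of all features, 4.48% were called higher and 2.32% lower in WT, and 3.29% higher and 5.87% lower in Il10-/-. All 6 B cell markers fell in both genotypes, their mean level from 6.08 to 7.70 down to 3.01 to 3.93 in WT and from 6.00 to 7.39 down to 2.60 to 2.76 in Il10-/-. Of 6 erythroid markers, 3 fell in each genotype, and of 5 T cell markers tested 1 fell in each. Of 4 monocyte markers tested, 1 rose in WT and 1 fell in Il10-/-, and the neutrophil markers had no call after radiation in either genotype. Heart muscle markers rose in Il10-/- (5 of 6 called, mean level -0.92 to 2.54 without and 1.26 to 6.24 with radiation). The part of these markers in the P450 results was not tested.

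Without radiation, the genotypes were compared on the arrays labelled 0 Gy, which also served as the controls of the radiation comparisons. No P450 gene of 42 was called, where 0.845% of all features were called, and 11 of the 42 had an unadjusted p below 0.05 (limma). With the slide as a block, 7 were called, all higher in Il10-/-: Cyp2a12, Cyp2d10, Cyp2d12, Cyp2d26, Cyp2f2, Cyp4a14 and Cyp7b1. All 7 were among the 24 genes that followed Alb. The share of 0.845% is from the fit without the block, and the share with it is not given here. The median difference, Il10-/- minus WT, was 0.88 over the 42 genes and 0.36 over all features. The general shift of 0.36 belonged to the scaling by array medians and was -0.07 to 0.11 under the other scalings. Cyp2d10 differed by 3.54 ± 1.39 (limma, adjusted p = 0.256), carried by replicates 3 and 4 of Il10-/-. It was well above background on only these 2 of 5 Il10-/- arrays, so its bound of 5.38-fold is approximate. Cyp2b10 had no overlap between the genotypes and was higher in Il10-/- on 5 of 5 slides by 0.49 to 3.11, a difference of 1.57 ± 0.44 that was not called (limma, adjusted p = 0.153). Its lowest value, 1.11, was on the WT array of widest spot spread, where it was not well above background. The study did report a P450 difference at baseline, for a gene it names Cyp2b6, by array and by qRT-PCR. No gene of that name was among the 96 taken here. Of the hepatocyte markers, 2 of 21 were higher in Il10-/-, and Alb was among the called features (5.75 ± 1.41, limma, adjusted p = 0.0878).

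The difference between the radiation responses was tested directly. No P450 gene was called, and neither was any feature (0% of 18587), with 3 P450 genes and 1301 features at an unadjusted p below 0.05 (limma). The median over the 42 genes was -1.33, Il10-/- response minus WT response, against -0.20 over all features. Cyp2d10 differed by -4.42 ± 2.75 (limma, adjusted p = 0.695), Cyp2b10 by -1.11 ± 0.57 (limma, adjusted p = 0.688) and Cyp4b1 by -1.15 ± 0.73 (limma, adjusted p = 0.696). A larger response in either genotype was therefore not shown for any of the 42 genes.

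The other P450 genes that were detected on all arrays and did not follow Alb had no call in any comparison. Cyp4f18 (mm9 chr8:74512381-74512440) lay at 7.77, 7.83, 7.59, 6.61 and 6.43 in unirradiated WT and 6.06, 6.12, 6.40, 6.60 and 6.57 in irradiated WT. It lay at 7.87, 7.92, 7.42, 8.22 and 8.09 in unirradiated Il10-/- and 6.74, 6.89, 6.69, 8.52 and 6.72 in irradiated Il10-/-. It was lower on 4 of 5 irradiated arrays of Il10-/- than on all unirradiated ones, but replicate 4 was the highest of all, and the difference of -0.79 ± 0.35 was not called (limma, adjusted p = 0.130). In WT the difference was -0.90 ± 0.40 (limma, adjusted p = 0.146). Without irradiated Il10-/- replicate 4 it was among 5 P450 genes called. Its 2 probes were alike, with group means of 7.25, 6.35, 7.90 and 7.11 and of 7.17, 6.21, 7.68 and 6.87.

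Cyp17a1, the gateway enzyme of androgen synthesis in adrenal and testis, had group means of 9.14, 8.87, 8.99 and 9.04 (unirradiated and irradiated WT, then unirradiated and irradiated Il10-/-). No comparison called it, and its probe had no mm9 position in the files. Cyp21a1, the adrenal hydroxylase of corticosteroid synthesis, had means of 4.95, 4.16, 4.01 and 3.70 and no call, and its other probe, with group means of -1.10 to -0.30, was detected on 2 arrays. Cyp46a1, the brain hydroxylase that clears cholesterol, had means of 5.09, 4.56, 4.2 and 4.37. Its genotypes did not overlap without radiation (4.45 to 6.23 in WT and 3.81 to 4.37 in Il10-/-), a difference of -0.89 ± 0.40 that was not called (limma, adjusted p = 0.298).

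Cyp2r1, which makes the circulating form of vitamin D, had means of 3.74, 4.23, 3.62 and 4.32 and differed by 0.70 ± 0.25 in Il10-/- after radiation (limma, adjusted p = 0.0654), not a call. Its other probe had means of -0.30, 0.99, 0.04 and 0.25. Cyp2s1, a P450 of epithelia, had means of 2.37, 3.38, 3.18 and 3.11 with no call. Of the enzymes with a known place in macrophages, Cyp27b1, which activates vitamin D, was detected on no array, and Cyp27a1 was detected on 0 unirradiated WT arrays and 7 of 20 in all. Cyp7b1, which makes ligands that guide B cells, was at -1.65 to -0.41 in unirradiated WT and 5.46, 5.50, 1.44, -0.42 and 0.37 in irradiated WT, at least 5.97-fold higher by its bound, but missed the p threshold (limma, adjusted p = 0.0182).

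**Figure D5:**
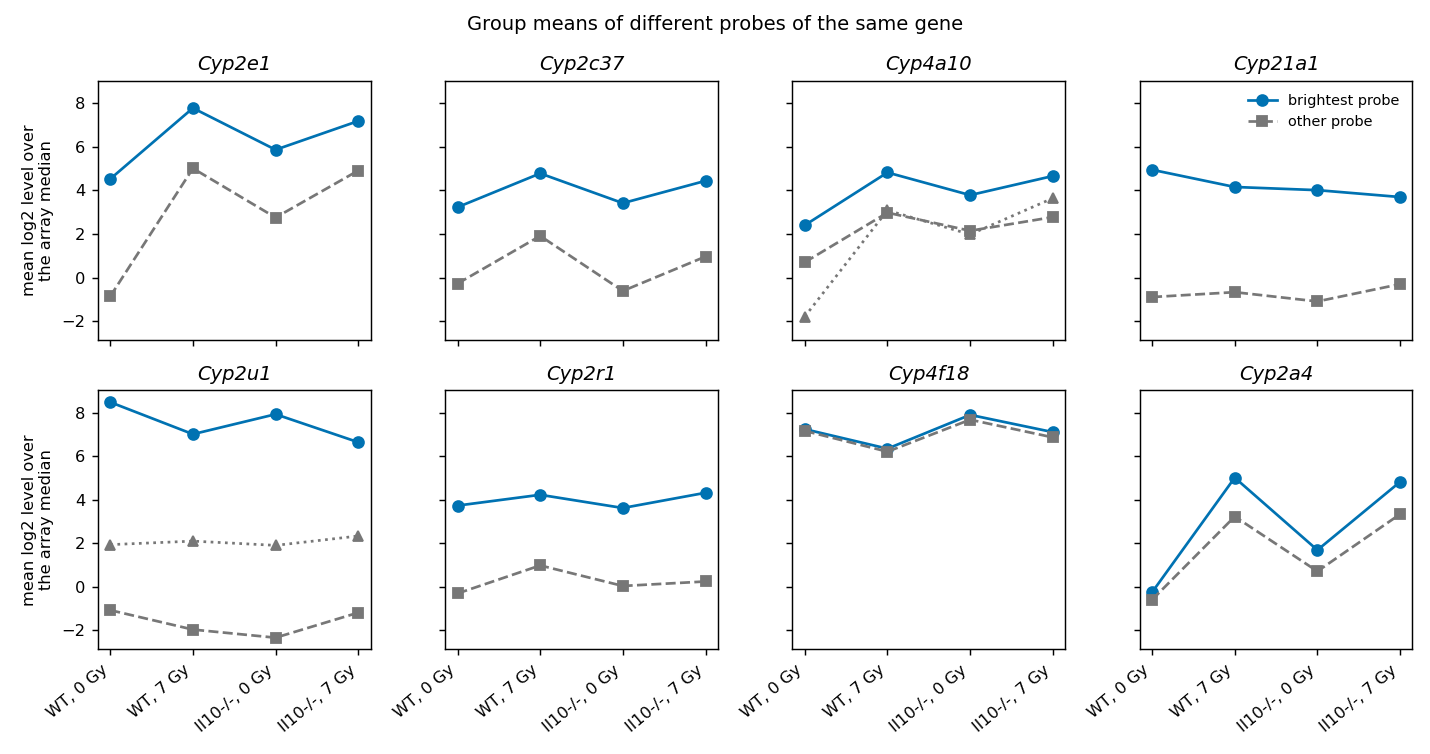
Group means of the level (vertical axis, log2 over the array median) for the brightest probe and the other probes of 8 P450 genes in the 4 labelled groups. Lines of Cyp4f18 run together, whereas the brightest Cyp2e1 probe has 4.53 in unirradiated WT and the other -0.86.

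Several probes were alike in sequence. The Cyp2c67 and Cyp2c68 probes matched at 55 of 59 aligned bases, Cyp3a41b and Cyp3a44 at 46 of 53 and Cyp4a10 and Cyp4a31 at 44 of 47, of 60 bases in each probe. Whether such a probe also reads the other gene's transcript was not tested.

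The partners of P450 enzymes were read from the same fit, in which 6.12% of all features tested rose with Alb. Of 10 electron donors, heme supply enzymes and companions, 6 followed Alb: Ephx2 (0.69 ± 0.08 per unit of Alb) and Ephx1 (0.16 ± 0.04), the epoxide hydrolases, Pgrmc1 (0.31 ± 0.05), a P450-binding heme protein, Fdx1 (0.27 ± 0.04), the mitochondrial electron donor, Cyb5b (0.24 ± 0.04), a cytochrome b, and Por (0.18 ± 0.04), the reductase that serves the microsomal P450 enzymes. Ephx1 was the member called for radiation, rising by 3.25 ± 0.58 in WT (limma, adjusted p = 0.00218) and by 2.15 ± 0.34 in Il10-/- (limma, adjusted p = 0.00144). Its range moved from 3.76 to 6.38 up to 7.66 to 10.01 in WT and from 5.40 to 7.42 up to 8.11 to 8.87 in Il10-/-, with no overlap in either. No partner was called between the unirradiated genotypes. This included Alas1, which the study counted among its baseline array differences and checked by qRT-PCR.

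Of 12 nuclear receptors and sensors that regulate P450 genes, 8 were tested and 5 followed Alb, where 6.12% of all features rose with it. These were Hnf4a (0.73 ± 0.06), the hepatocyte regulator whose site is printed above, Nr1h4 (0.52 ± 0.06), the bile acid receptor, Nr1h3 (0.35 ± 0.04), an oxysterol receptor, Nr1i3 (0.32 ± 0.04), which is CAR, and Ahr (0.16 ± 0.04), the aryl hydrocarbon receptor. Nr1h3 rose in WT after radiation by 2.91 ± 0.69 (limma, adjusted p = 0.0114), and none was called in Il10-/- or between the unirradiated genotypes.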

How the data were processed

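Per the labels and the study's methods, the authors labelled RNA with Cy3, hybridised it to 1-colour arrays and read them with Agilent Feature Extraction, version 10.7 in the methods and 12.0.2.2 in the file headers (genome build mm9). The deposited files give an intensity for each spot, background-subtracted by the authors' software (processed signal), with marks for spots well above background and for saturated spots. The deposited series table gives log2 values processed by the authors and was used as an alternative. Array samples were grouped by title.

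Here the log2 processed signal of the 39429 non-control probes was centred on each array's median, repeated spots were averaged, and probes were kept where fewer than 25% of arrays carried a mark for a non-uniform spot or for a signal not significantly above background, and at least 20% of arrays differed by 1.5-fold or more from the probe's median, which left 18587 features. Differences were tested with limma 3.58.1 (R 4.3.3) over all features, 5 against 5 arrays for each comparison of a pair of groups and all 20 arrays for the difference between the responses and for Alb, and a gene was called where p was below 0.001 and the Benjamini-Hochberg adjusted value below 10%. Alb coefficients were fitted with group terms, and correlations with Alb used 100000 resamples within groups (scipy 1.17.1). Cyp genes of the text were those detected on all arrays, those called in any comparison, the 8 with the largest Alb coefficient, and lists of P450 genes known from leukocytes, liver and lung, with the partner genes called; others were named after their values were seen. The members and lists were chosen with earlier results of these data known. With 5 arrays a group, their number sets the precision. The fits were tested on simulated data.

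The replicate numbers are also the slides, as the file headers show, each slide holding 1 array of every group, so a fit with the slide as a block was an alternative. Same-numbered arrays did not all deviate together: over pairs of groups the correlation of deviations from group means was -0.658 to 0.683 and did not pass 0.1 on all 5 slides for any 2 groups. Of the 120 P450 probes, 117 matched a RefSeq symbol. Other alternatives were the scaling, background correction, filters, threshold, probe choice, arrays in the fit, Alb as a covariate and leaving out arrays.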

Additional observations from a re-analysis of the deposited data

Results flagged for a closer look

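In 132 sets of 5 arrays (33 P450 genes in 4 groups), 8 held an array farther from the rest than the critical gap of 0.71 of the set's range. Chance alone gives about 1 in 20 such sets. Of the 8, 4 lay on unirradiated WT replicate 5, the array with the widest spot spread: Cyp2s1 at 0.061 (others 2.61 to 3.47), Cyp2f2 at 1.04 (others -2.27 to -1.41), Cyp2b10 at 1.11 (others 2.74 to 3.08) and Cyp7b1 at -0.41 (others -1.65 to -1.31). Cyp2b10 was also low on irradiated Il10-/- replicate 3, the array with the next widest spread, at 4.10 (others 5.01 to 5.36). Cyp2c37 was high on unirradiated WT replicate 4 at 4.49 (others 2.76 to 3.21). Cyp2u1 was low on irradiated WT replicate 3 at 6.41 (others 7.01 to 7.26). Cyp4f18 was high on irradiated Il10-/- replicate 4 at 8.52 (others 6.69 to 6.89).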

How the results depend on the processing

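Against 9 P450 genes called in WT after radiation, the count was 4 with scaling to the 75th percentile, 2 with scaling to a reference array, 5 with quantile normalization, 0 with normexp background correction, 2 from the series table, 18 at a rate under 5% alone, 4 with all 4 groups in 1 fit and 0 with Alb as a covariate. In Il10-/-, against 3, it was 0 with normexp and 5 at a rate under 5% alone. Between the unirradiated genotypes, against 0, it was 1 with all groups in 1 fit (Cyp2b10) and 1 with Alb as a covariate (Cyp2a4, lower in Il10-/-). With no filter, 46 of 96 genes followed Alb, against 24 of 42. Normexp left 35 P450 genes to test. With Alb as a covariate, the WT difference was -0.0254 for Cyp2a12, -0.78 for Cyp2d10, -0.87 for Cyp2d12, -1.18 for Cyp2d26 and -0.42 for Cyp2d9. The cause was not tested for any of these changes.

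With the slide as a replicate block, 7 P450 genes were called between the unirradiated genotypes (Cyp2a12, Cyp2d10, Cyp2d12, Cyp2d26, Cyp2f2, Cyp4a14 and Cyp7b1, all higher in Il10-/-) and 19 in WT after radiation. The shares of all features called with the block are not given here, so neither count is set against one. The slide block moved no other count past 1.5 times. Leaving out each array in turn gave 0 to 1 calls between the unirradiated genotypes, 3 to 18 in WT, 3 to 5 in Il10-/-, 0 to 0 for the difference between the responses and 22 to 25 for Alb. After the data were seen, 2 alternatives were added: without both arrays of the widest spot spread, 3 genes were called in WT, and with replicates 1 and 2 counted as 1, 5 were. The series table held no Alb value for unirradiated WT replicates 4 and 5, so its Alb fit left them out. Signal near background limits the dim liver genes, whose folds are bounds.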
